A study of Mus musculus with 8 samples.

Results

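The genes described here encode core parts of the transforming growth factor-β (TGF-β) pathway, namely the ligand *Tgfb1*, the receptors *Tgfbr1*, *Tgfbr2* and *Tgfbr3*, the signal transducers *Smad2*, *Smad3*, *Smad4* and *Smad7*, and the repressors *Ski* and *Skil*. They were chosen by symbol from their known roles, with earlier results of these data known. All 10 were listed among the 48321 gene symbols counted and passed the filter on low counts. Expression was measured by RNA-seq of freshly isolated natural killer (NK) cells, sorted as CD45+ TCRb- NK1.1+ cells from lung and spleen of C57/Bl6 mice, as 4 groups (lung or spleen, WT or KO) of 2 libraries each. WT mice carry the intact *Ccl5* locus, and KO mice are homozygous for a germline deletion of *Ccl5-PE*, the proximal enhancer that maintains expression of the chemokine gene *Ccl5* in unstimulated cells. According to the methods, mice of the study were young adults of both sexes, and the labels name no treatment of these cells. The KO deletion was present in every cell of the mouse and not only in NK cells. Whether the libraries within a group stem from different mice is stated neither in the labels nor in the methods, so p-values measure the spread between these libraries, which may be technical. A difference between groups in mouse or preparation therefore cannot be told apart from an effect of genotype or organ.

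TGF-β is secreted in a latent form and, once freed, binds the type II receptor TGFBR2, which then phosphorylates the type I receptor TGFBR1. The activated type I receptor phosphorylates SMAD2 and SMAD3, which enter the nucleus with the shared partner SMAD4, whereas SMAD7 is an inhibitory SMAD that the pathway itself induces and SKI and SKIL (SnoN) are repressors that bind the SMAD complex. TGFBR3 (betaglycan) is a co-receptor without kinase activity that presents ligand to TGFBR2. In NK cells, TGF-β is known for restraining cytotoxicity and interferon-γ production and for promoting features of tissue-resident innate lymphoid cells.

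The 2 signalling receptor genes moved in opposite directions in lung NK cells without *Ccl5-PE* in the main fit, and the sequences just before their start sites are shown. The fall of *Tgfbr1* was not called by DESeq2 (log2 fold change -0.35). Nor was it called once the trend of each library with GC content was removed (-0.16). A link between these sequences and the transcript levels was not tested. Each run holds the 250 bases upstream of a RefSeq start site on GRCm38.p6, written 5′ to 3′ on the strand of the gene. Capitals mark the GC box GGGCGG and the CCAAT box CCAAT, on either strand.
Tgfbr1, chr4:47352972-47353221, plus strand: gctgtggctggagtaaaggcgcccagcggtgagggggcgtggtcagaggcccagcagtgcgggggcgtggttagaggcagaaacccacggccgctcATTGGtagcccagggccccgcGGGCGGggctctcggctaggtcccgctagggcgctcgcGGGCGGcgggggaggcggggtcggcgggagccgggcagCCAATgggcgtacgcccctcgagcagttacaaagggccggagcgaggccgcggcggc
Tgfbr2, chr9:116175364-116175613, minus strand: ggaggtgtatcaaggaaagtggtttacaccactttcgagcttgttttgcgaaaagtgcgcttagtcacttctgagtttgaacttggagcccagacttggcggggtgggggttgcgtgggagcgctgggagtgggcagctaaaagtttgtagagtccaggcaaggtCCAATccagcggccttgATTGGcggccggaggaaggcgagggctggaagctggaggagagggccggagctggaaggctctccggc
The *Tgfbr1* run held 2 GC boxes, the first bases of which lay at -133 and -95 from the start, and 2 CCAAT boxes at -154 and -57. The *Tgfbr2* run held no GC box and 2 CCAAT boxes at -85 and -68. None of the matches overlapped another. In these 2 runs, there was no match on either strand to the RUNX motif TGTGGT, the SMAD motifs CAGACA and GTCTAGAC or the AP-1 motif TGANTCA. Of 32851 upstream windows of the same length, 32.7% held a GC box, 33.8% a CCAAT box, 14.0% the RUNX motif, 17.1% and 0.167% the respective SMAD motifs, and 6.75% the AP-1 motif. The table of start sites matched 5 members, namely *Tgfb1*, *Tgfbr1*, *Tgfbr2*, *Smad3* and *Ski*. A further start site of *Tgfbr1* had 1 match to CAGACA, at -203, and *Tgfb1* and *Ski* each had 5 GC boxes, whereas *Smad3* had 2.

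Between 3132963 and 26482366 reads per library were counted on genes, the deepest by far being replicate 2 of spleen KO, and a floor of 3 reads equalled 0.115 to 0.979 CPM (read counts relative to the library total, TMM-scaled). Of all genes, 12595 were tested. *Ccl5* itself was at 15660 to 19520 CPM in the WT libraries and 2432 to 3195 CPM in the KO libraries, so every library carried the *Ccl5* level of its labelled genotype. All 11 markers of NK cells were detected in all libraries and summed to between 38780 and 55250 CPM, with *Gzma*, *Nkg7* and *Klrb1c* among the highest. Transcripts of other cells were present at lower levels. Lung epithelial markers summed to 240–241 CPM in lung WT and 318–350 CPM in lung KO, nearly all of it *Sftpc* and *Scgb1a1*, and both of these were at 0 in all spleen libraries. Endothelial and stromal markers summed to 73.3–78.9 CPM in lung WT and 95.4–98.2 in lung KO, mostly *Pecam1*. In spleen they summed to 65.45–75.25 CPM in WT and 67.25–67.99 in KO. Nearly all of the spleen sum was *Pecam1*, and *Cdh5*, *Kdr*, *Vwf*, *Col1a1*, *Col3a1* and *Pdgfra* were at 0 there. T cell markers summed to 124–294 CPM. The highest of them was *Trbc2*, at 75.3 to 127 CPM. *Cd3d* and *Cd3g* ranged from 14.15 to 22.5 CPM in lung and from 55.3 to 72.1 CPM in spleen. For *Cd3e*, the spleen libraries had 32.0 and 32.5 CPM with the enhancer and 7.51 and 11.15 CPM without it. *Cd4*, *Cd8a*, *Cd8b1* and *Cd5* were each at or below 2.25 CPM. B cell markers summed to 248–632 CPM, mostly *Ighm*. Platelet markers summed to 66.3–66.8 CPM in WT and 35.2–44.9 in KO for lung, and to 31.7–36.7 CPM in WT and 17.6–19.2 in KO for spleen. Most of the spleen sum was *Gp1bb*. *Pf4* was at or below 0.701 CPM in spleen, and *Ppbp* was at 0.250 and 0.117 CPM in WT and 1.63 and 1.61 in KO. In lung, *Pf4* and *Ppbp* were lower in KO than in WT, and *Gp1bb* overlapped between the genotypes. Myeloid markers summed to at most 41.8 CPM, with *Adgre1*, *Fcgr1*, *S100a8*, *S100a9* and *Csf3r* at 0 in all libraries. The part of these cells in the results that follow was not tested. In bulk RNA, fewer cells of a type and less RNA per cell cannot be told apart.

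*Smad3* and *Skil* were the most abundant members and *Tgfbr3* the least abundant, in all 4 groups. Levels between genes were compared as CPM per kilobase of exon (GENCODE M21, GRCm38). In lung WT, the level per kilobase of *Smad3* was 25.0 ± 0.92 (SD, n = 2), followed by 19.3 for *Skil*, 13.1 for *Smad4* and 11.0 for *Smad2*. *Tgfbr2* at 6.85 ± 0.11 and *Tgfbr1* at 6.85 ± 1.05 overlapped, and *Ski* (5.63), *Smad7* (3.10), *Tgfb1* (2.02) and *Tgfbr3* (0.822) came next. The order in spleen WT was nearly the same, with *Smad2* (10.5) above *Smad4* (8.11) and again overlapping libraries of *Tgfbr1* (7.71 ± 0.20) and *Tgfbr2* (7.51 ± 0.52). In both KO groups, *Tgfbr2* stood above *Tgfbr1* without overlap, at 8.93 ± 0.081 against 5.45 ± 0.45 per kilobase in lung and 8.99 ± 0.13 against 7.75 ± 0.065 in spleen. Apart from *Tgfbr1* and *Tgfbr2* in the 2 WT groups, no neighbours in these orders had overlapping libraries. With the length of the longest transcript in place of all exons, *Skil* came above *Smad3* in lung WT, *Tgfbr1* above *Tgfbr2* in lung WT and above *Ski* in lung KO, and *Tgfb1* above *Smad7* in 3 of the 4 groups.

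**Figure D1:**
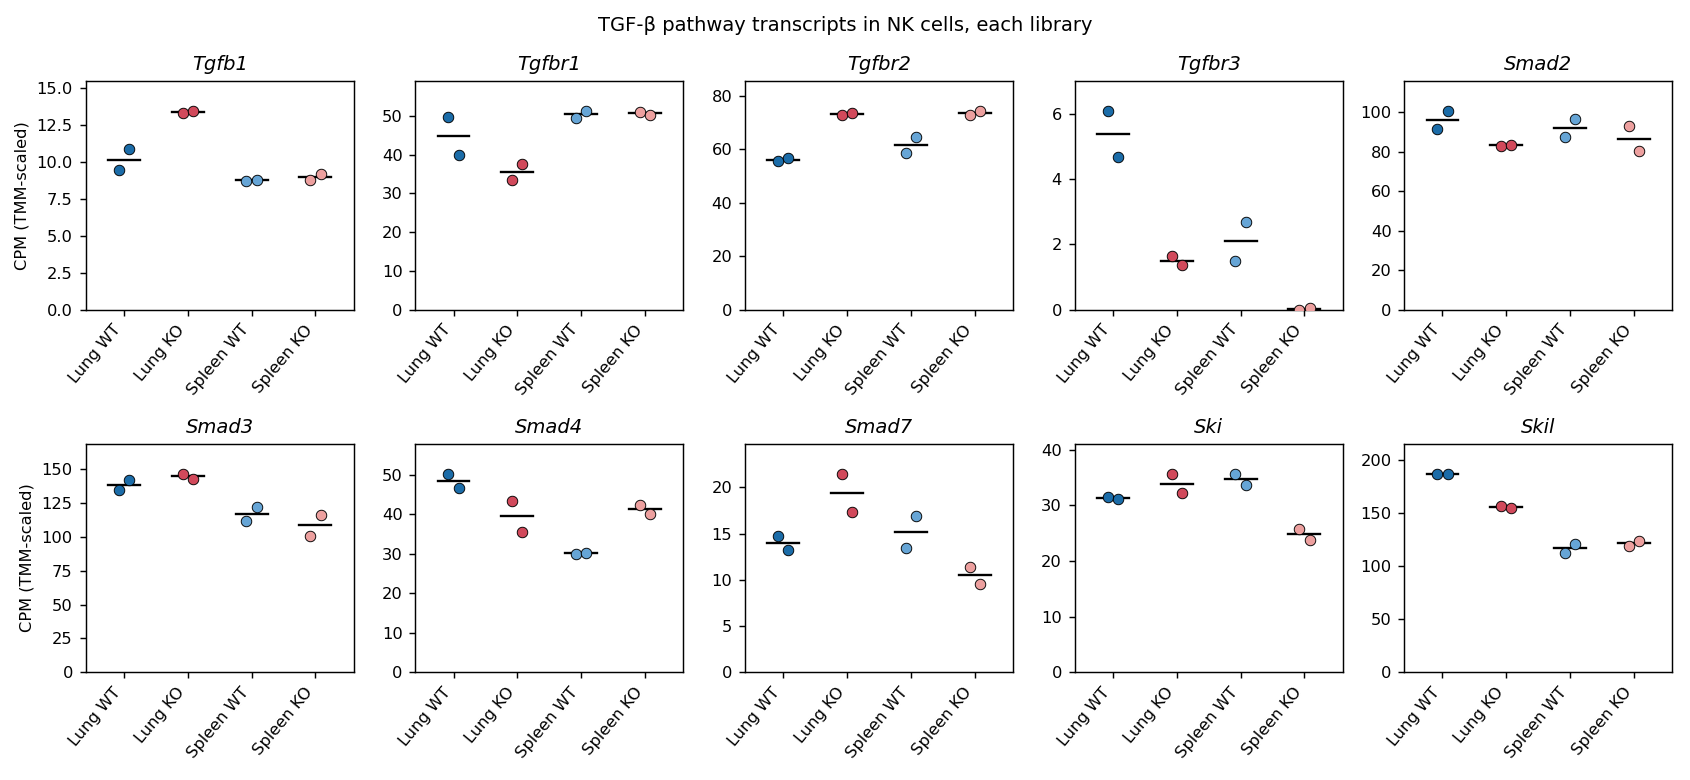
Level of each member in each library, in CPM scaled by TMM (y axes from 0, 1 panel per gene). Points are the 2 libraries of each group and bars their mean. *Tgfbr3* fell from 5.38 to 1.50 CPM in lung and from 2.09 to 0.0192 CPM in spleen, and *Tgfbr2* was higher in KO than in WT libraries in both organs.

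In lung, the loss of *Ccl5-PE* went with higher transcript levels of the ligand *Tgfb1*, the receptor *Tgfbr2* and the inhibitory *Smad7*, and with lower levels of *Tgfbr1*, *Tgfbr3*, *Smad2*, *Smad4* and *Skil*. *Smad3* and *Ski* did not pass the test. Thus 8 of 10 members were called by edgeR's quasi-likelihood test at an adjusted p under 0.05, 3 higher and 5 lower, whereas 55.6% of all genes tested were called in lung (29.2% higher and 26.4% lower). In spleen, 6 of 10 members were called, *Tgfbr2* and *Smad4* higher and *Tgfbr3*, *Smad2*, *Smad7* and *Ski* lower, beside 57.1% of all genes (28.2% higher and 28.9% lower). The median log2 fold change over the members was -0.06 in lung and -0.04 in spleen, and over all genes 0.02 and 0. The libraries of KO and WT did not overlap for 10 of 10 members in lung and 6 of 10 in spleen, beside 76% and 73.8% of all genes. Of the members, 5 were called in both organs, 3 in the same direction (*Tgfbr2*, *Tgfbr3*, *Smad2*) and 2 in opposite directions (*Smad4*, *Smad7*). Among all genes, 4367 were called in both organs, of which 77.9% in opposite directions. The KO effect itself differed between the organs for 6 of 10 members, beside 61.6% of all genes (32.5% more positive in lung, 29% more negative).

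**Figure D2:**
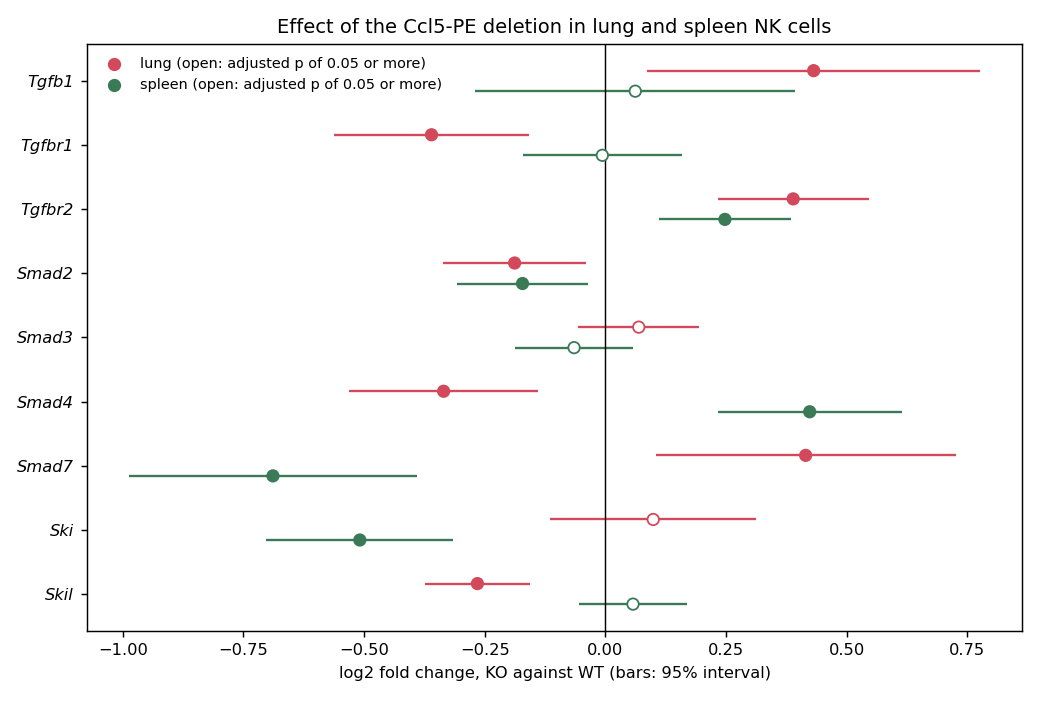
Log2 fold change of KO against WT for 9 members in lung (red) and spleen (green), with 95% intervals from edgeR (x axis, log2 units). Filled points passed an adjusted p of 0.05. *Smad4* and *Smad7* lie on opposite sides of 0 in the 2 organs, and *Tgfbr2* lies above 0 in both. *Tgfbr3* is left out because its spleen KO libraries held 1 read in all.

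Among the receptors, *Tgfbr3* (chr5:107106570-107289629, minus strand) showed the largest relative change of the members. In lung WT, 49 and 18 reads gave 6.09 and 4.66 CPM, and in lung KO 8 and 10 reads gave 1.64 and 1.36 CPM. In spleen WT, it had 6 and 23 reads (1.50 and 2.69 CPM), and the spleen KO libraries held 0 and 1 read, although the second was the deepest of the series. Thus KO was below WT in both organs without overlap. The lung KO level was 26.1% of WT (95% interval from the read counts, 14.6 to 44.5%), with a log2 fold change of -1.92 (SE 0.35, adjusted p = 1.4e-05 by edgeR). In spleen it was 1.48% of WT (95% interval 0.0364 to 8.96%, 1 against 29 reads, adjusted p = 2.22e-08 by edgeR). These intervals cover counting error only. The KO effect was smaller in lung than in spleen (edgeR interaction, adjusted p = 0.000907), a call that was lost without replicate 2 of spleen KO. No exon of an expressed gene overlaps those of *Tgfbr3*. Markers of other cells moved in both directions beside *Tgfbr3*. In lung KO, of the markers tested, 0 of 3 platelet markers rose and 2 fell, 1 of 4 myeloid markers rose (*Lyz2*, 12.2 and 15.8 CPM in WT, 23.5 and 25.2 in KO) and 2 fell, 0 of 7 markers of innate lymphoid cells of group 1 rose and 3 fell, and 2 of 5 endothelial and stromal markers rose (*Pecam1* and *Vwf*) and 0 fell. In spleen KO, 1 of 3 platelet markers rose and 1 fell (*Gp1bb*, 35.5 and 30.6 CPM in WT, 15.7 and 16.9 in KO), 1 of 7 markers of innate lymphoid cells rose and 2 fell (among them *Il7r*, 90.2 and 94.9 CPM in WT, 70.2 and 71.6 in KO), and 0 of 5 endothelial and stromal markers were called. Of the T cell markers tested, 0 of 5 rose and 2 fell in lung KO, and 1 rose and 1 fell in spleen KO. Of 5 B cell markers, 2 rose and 1 fell in lung KO, and 1 rose and 1 fell in spleen KO. Of 3 epithelial markers, 2 rose and 1 fell in lung KO, and 0 were called in spleen KO. Of 4 myeloid markers, 1 rose and 0 fell in spleen KO. The part of these cells in the *Tgfbr3* result was not tested.

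*Tgfbr2* (chr9:116084293-116175360, minus strand), the ligand-binding kinase receptor, rose in both organs. It was at 55.4 and 56.7 CPM in lung WT and 72.7 and 73.6 in lung KO, a log2 fold change of 0.39 (SE 0.08, adjusted p = 5.14e-05 by edgeR). In spleen, it was at 58.4 and 64.5 CPM in WT and 72.8 and 74.3 in KO, a change of 0.25 (SE 0.07, adjusted p = 0.00205 by edgeR) that was not called without replicate 2 of spleen KO (0.22). The KO libraries of both organs lay above all 4 WT libraries. A difference between the organs did not pass the test (edgeR interaction 0.14, 95% interval -0.07 to 0.35).

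*Tgfbr1* (chr4:47353222-47414931, plus strand), the type I kinase that activates SMAD2 and SMAD3, fell in lung, and its KO effect differed between the organs. In lung WT it was at 49.6 and 39.9 CPM and in lung KO at 33.6 and 37.7, a log2 fold change of -0.36 (SE 0.10, adjusted p = 0.00246 by edgeR). In spleen, WT libraries had 49.5 and 51.3 CPM and KO libraries 50.9 and 50.3, with overlap between the genotypes and a 95% interval of the log2 fold change from -0.17 to 0.16. The KO effect was 0.35 lower in lung than in spleen on the log2 scale (95% interval of the difference -0.62 to -0.09, edgeR interaction, adjusted p = 0.0169). Without replicate 1 of lung WT, the lung change was -0.16 and was not called. The organ difference was lost without that library (-0.16), without replicate 1 of lung KO (-0.28) and without replicate 2 of spleen KO (-0.37). Since the 2 receptor genes moved in opposite directions, the 2 receptor levels that overlapped per kilobase in lung WT were apart in lung KO.

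The ligand gene *Tgfb1* (chr7:25687002-25705077, plus strand) was at 9.45 and 10.9 CPM in lung WT and at 13.3 and 13.5 in lung KO. This rise of 0.43 on the log2 scale (SE 0.17, adjusted p = 0.03 by edgeR) was called with all libraries, and was not called without replicate 1 of lung WT (0.29) or without either lung KO library (0.45 and 0.42). Spleen libraries lay close together, at 8.74 and 8.76 CPM in WT and 8.81 and 9.19 in KO, and did not pass the test (95% interval -0.27 to 0.39). The test of the organ difference was not passed either (0.37, 95% interval -0.11 to 0.85).

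Of the SMAD genes, *Smad4*, the partner shared by the TGF-β and bone morphogenetic protein (BMP) branches, moved in opposite directions in the 2 organs. It was at 50.4 and 46.6 CPM in lung WT and 43.4 and 35.6 in lung KO, whereas spleen WT had 30.0 and 30.3 CPM and spleen KO 42.4 and 40.1. The KO libraries lay below those of WT in lung and above them in spleen, without overlap, and the 2 KO groups overlapped each other. The log2 fold change was -0.34 in lung (SE 0.10, adjusted p = 0.00339 by edgeR) and 0.42 in spleen (SE 0.09, adjusted p = 0.000219 by edgeR), and the difference between these effects was -0.76 (SE 0.13, adjusted p = 7.66e-06 by edgeR). The lung call was lost without replicate 1 of lung WT (-0.27) or replicate 2 of lung KO (-0.18).

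*Smad7*, which competes with the activating SMADs at the receptor, also changed in opposite directions, with the signs of *Smad4* reversed. Lung WT had 14.8 and 13.2 CPM and lung KO 21.5 and 17.3, whereas spleen WT had 13.5 and 16.9 and spleen KO 11.4 and 9.54. Thus KO was above WT in lung and below it in spleen, without overlap. The log2 fold change was 0.41 in lung (SE 0.15, adjusted p = 0.0208 by edgeR) and -0.69 in spleen (SE 0.15, adjusted p = 0.000132 by edgeR), and these effects differed by 1.10 (SE 0.21, adjusted p = 2.5e-05 by edgeR). The lung call was lost without either lung WT library or without replicate 1 of lung KO (0.29 to 0.52), and the spleen call without replicate 2 of spleen WT (-0.46) or of spleen KO (-0.47).

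*Smad2* and *Smad3*, the receptor-activated transducers, differed little between genotypes. *Smad2* was at 91.6 and 101 CPM in lung WT and 83.1 and 83.5 in lung KO. Spleen libraries had 87.7 and 96.6 CPM in WT and 93.0 and 80.5 in KO, where the libraries overlapped. Its log2 fold change was -0.19 in lung (SE 0.07, adjusted p = 0.0284 by edgeR) and -0.17 in spleen (SE 0.07, adjusted p = 0.0268 by edgeR), and the spleen value was -0.01 without replicate 2 of spleen KO and -0.08 without replicate 2 of spleen WT, neither of which was called, nor was the value without a filter on low counts (-0.15). The lung call was lost without replicate 2 of lung WT (-0.14) and without either lung KO library (-0.18 and -0.19). *Smad3* (chr9:63646767-63757994, minus strand) was at 135 and 142 CPM in lung WT and 147 and 142 in lung KO. Its spleen values were 112 and 122 CPM in WT and 101 and 116 in KO. For *Smad3* no KO effect passed the test, with 95% intervals from -0.06 to 0.19 in lung and -0.19 to 0.06 in spleen.

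The 2 repressor genes did not move together. *Ski* (chr4:155154075-155222592, minus strand) fell in spleen, from 35.7 and 33.6 CPM in WT to 25.8 and 23.9 in KO, a log2 fold change of -0.51 (SE 0.10, adjusted p = 2.36e-05 by edgeR). In lung it was at 31.6 and 31.1 CPM in WT and 35.6 and 32.2 in KO and did not pass the test (95% interval -0.11 to 0.31), and the organs differed by 0.61 (SE 0.14, adjusted p = 0.000341 by edgeR). *Skil* (chr3:31095058-31122577, plus strand) fell in lung, from 187 CPM in both WT libraries to 157 and 155 in KO, a change of -0.27 (SE 0.05, adjusted p = 6.77e-05 by edgeR). In spleen, *Skil* was at 113 and 121 CPM in WT and 119 and 124 in KO, with overlap and a 95% interval from -0.05 to 0.17, and the effects differed between organs by -0.32 (SE 0.08, adjusted p = 0.000441 by edgeR).

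Between the organs, 4 of 10 members were higher in lung WT than in spleen WT and none were lower, whereas 57% of all genes tested were called (27.7% higher in lung, 29.3% lower). They were *Smad4* (log2 difference 0.70, SE 0.10, adjusted p = 2.57e-07 by edgeR), *Skil* (0.67, SE 0.06, adjusted p = 1.01e-12), *Smad3* (0.22, SE 0.06, adjusted p = 0.00373) and *Tgfbr3* (1.28, SE 0.31, adjusted p = 0.000618). In KO mice, 7 of 10 members were called, beside 65.6% of all genes (33.9% higher, 31.7% lower). *Tgfb1* (0.55), *Smad3* (0.35), *Smad7* (0.96), *Ski* (0.48) and *Skil* (0.34) were higher in lung KO than in spleen KO, and so was *Tgfbr3*, at 18 against 1 reads. *Tgfbr1* was lower, by a log2 difference of -0.49 (SE 0.09, adjusted p = 9.13e-06 by edgeR). The libraries of the organs did not overlap for 7 of 10 members in WT and 7 of 10 in KO, beside 75.6% and 79.4% of all genes. *Smad4*, which differed between the organs in WT, overlapped between them in KO. Between the WT organs, *Tgfbr3* was no longer called by DESeq2 (1.33) or without replicate 1 of lung WT (1.03), nor *Smad3* with library totals (0.11). Without replicate 2 of spleen KO, *Tgfb1* (0.61) and *Ski* (0.39) were no longer called between the KO organs. These comparisons share libraries with those of the genotypes.

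Part of these results changed when the trend of each library with GC content was removed. Whether that trend is technical or biological was not tested. The GC content of the transcript ranges over the members from 41.0% in *Tgfbr1* and *Skil* to 56.9% in *Smad7*. When the trend of each library with GC content was removed, *Tgfbr2* (0.39), *Tgfbr3* (-1.88) and *Smad4* (-0.33) were called in lung and *Tgfb1* (0.32), *Tgfbr1* (-0.16), *Smad2* (-0.07), *Smad7* (0.17) and *Skil* (-0.07) were not. In spleen, the 6 called members were called again, with smaller changes of *Ski* (-0.32) and *Smad7* (-0.47), joined by *Tgfbr1* (-0.20) and *Skil* (-0.13). Of the 12595 genes tested, 6758 were then called in lung and 7003 in spleen. The organ difference of the KO effect was called for *Tgfbr3* (3.69), *Smad4* (-0.75) and *Smad7* (0.64), and was not for *Ski* (0.21), *Tgfbr1* (0.03) and *Skil* (0.06). With library totals in place of TMM, *Smad2* in lung (-0.09) and the organ differences of *Tgfbr1* (-0.19) and *Skil* (-0.16) were not called, whereas *Smad3* in lung (0.16) and the organ differences of *Tgfbr2* (0.30) and *Smad3* (0.29) were. DESeq2 called 3 members in lung (*Tgfbr2*, *Tgfbr3*, *Skil*) and 3 in spleen (*Tgfbr3*, *Smad4*, *Ski*), beside 4507 and 4165 of the 12595 genes tested.

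**Figure D3:**
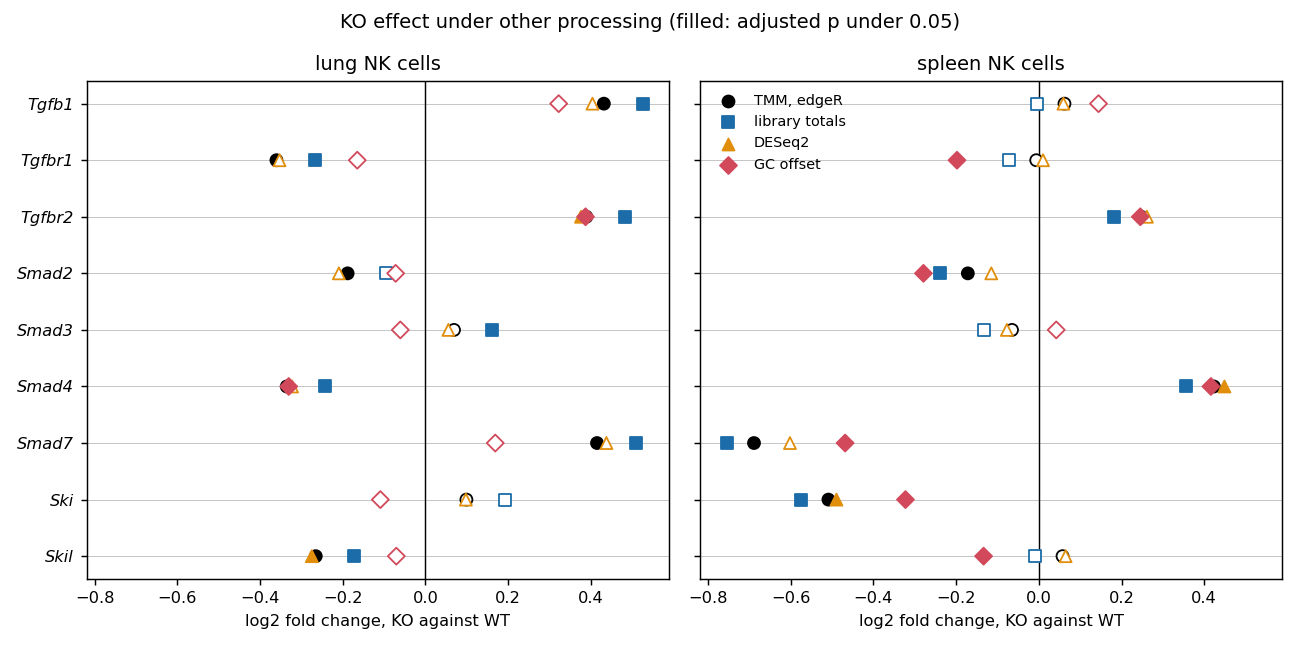
Log2 fold change of KO against WT (x axis) for 9 members under 4 ways of processing, in lung and in spleen, where filled symbols passed an adjusted p of 0.05. *Tgfbr2* in both organs, *Smad4* in both organs and *Ski* in spleen keep their sign under all 4, whereas *Smad3*, lung *Ski* and spleen *Skil* change sign with the GC offset. *Tgfbr3* is left out because of its scale.

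In the wider pathway, 63 of 90 further genes were expressed highly enough to be tested, and they were called about as often as genes at large. In lung, 20 rose and 17 fell (58.7%, beside 55.6% of all genes), with a median log2 fold change of 0.03. In spleen, 18 rose and 19 fell (58.7%, beside 57.1% of all genes), with a median of -0.06. Called in both organs were 22 of them, 16 in opposite directions (72.7%, beside 77.9% among all genes).

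Among ligands and the genes that store or free them, 7 of 22 were tested. Of these, 4 rose and 1 fell in lung (71.4%, beside 55.6% of all genes). In spleen, 3 rose and 2 fell (71.4%, beside 57.1%). *Nrros*, which anchors latent TGF-β1 on myeloid cells, rose from 88.3 ± 6.68 to 147 ± 2.38 CPM in lung (SD, n = 2) and fell from 152 ± 4.76 to 91.8 ± 2.21 CPM in spleen. *Itgav*, the αv integrin chain that activates the latent ligand, fell in lung from 58.0 ± 3.02 to 44.6 ± 2.89 CPM. *Tgfb3* (1.78 to 5.35 CPM) and *Ltbp3*, a latent TGF-β binding protein (2.54 to 5.59 CPM), rose in lung at low levels, and *Furin*, the protease that cleaves the TGF-β1 precursor, rose in spleen from 10.04 to 13.4 CPM.

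At the receptor level, 10 of 17 genes were tested. In lung, 4 were higher and 2 lower (60.0%, beside 55.6% of all genes), and in spleen 2 higher and 4 lower (60.0%, beside 57.1%). Both *Bambi*, a pseudoreceptor, and *Ldlrad4*, which limits SMAD activation, rose in lung and fell in spleen. *Bambi* went from 12.4 ± 0.36 to 22.0 ± 0.38 CPM in lung and from 5.55 ± 0.080 to 0.623 ± 0.42 CPM in spleen, and *Ldlrad4* from 2.48 ± 0.52 to 8.21 ± 0.32 and from 7.19 ± 0.42 to 3.41 ± 0.21 CPM. *Eng*, an endothelial co-receptor, had 3 reads in lung WT and 69 in lung KO, whereas the endothelial markers did not share a direction. *Vwf* was at 0.124 and 0 CPM in lung WT and 1.84 and 3.81 in lung KO, *Cdh5* at 9.45 and 8.55 against 4.71 and 7.75, and *Kdr* at 2.61 and 1.81 against 3.07 and 2.59. The part of endothelial cells in the *Eng* and *Acvrl1* results was not tested.

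Of SMADs and their cofactors, 13 of 18 were tested. In lung, 3 were higher and 6 lower (69.2%, beside 55.6% of all genes), and in spleen 7 higher and 3 lower (76.9%, beside 57.1%). *Smad1*, a transducer of the BMP branch, rose in lung from 15.5 ± 2.24 to 32.1 ± 1.85 CPM. *Tgif1*, a corepressor of SMADs, rose in both organs, from 50.3 ± 0.43 to 79.5 ± 2.77 CPM in lung and from 29.8 ± 4.48 to 37.3 ± 1.99 CPM in spleen. *Zeb1*, a transcriptional repressor, fell in lung from 60.2 ± 1.22 to 41.3 ± 2.40 CPM and rose in spleen from 45.2 ± 2.48 to 67.4 ± 1.20 CPM.

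Among ubiquitin ligases, deubiquitinases and phosphatases of the pathway, all 18 were tested. In lung, 4 were higher and 7 lower (61.1%, beside 55.6% of all genes), and in spleen 3 higher and 4 lower (38.9%, beside 57.1%). *Wwp2*, a ubiquitin ligase that binds SMADs, rose in lung from 51.7 ± 1.23 to 83.5 ± 0.90 CPM and fell in spleen from 91.1 ± 2.93 to 42.9 ± 1.25 CPM. The deubiquitinase genes *Usp4* and *Uchl5* moved against each other, *Usp4* from 147 to 180 CPM in lung and from 167 to 125 in spleen, and *Uchl5* from 190 to 134 in lung and from 121 to 174 in spleen. In the branch that does not pass through SMADs, 15 of 15 genes were tested. In lung, 5 were higher, 1 lower and 9 not called, a smaller called share than the 55.6% of all genes. In spleen, 3 were higher and 6 lower (60.0%, beside 57.1%). *Rock1*, a kinase of the cytoskeleton, fell in both organs, from 411 ± 22.2 to 192 ± 2.49 CPM in lung and from 286 ± 15.8 to 215 ± 3.64 CPM in spleen. *Mapk14* (p38α) rose in lung from 69.5 to 100 CPM and fell in spleen from 94.8 to 63.0 CPM.

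Genes known to respond to TGF-β in lymphocytes or other cells did not share a direction in lung. Their list was not split into genes that TGF-β raises and genes that it lowers. Its counts and medians therefore cannot show whether the response to TGF-β changed. Of the 26 on the list, 21 were tested, of which 7 rose and 6 fell in lung (61.9%, beside 55.6% of all genes) with a median log2 fold change of 0.03, and 6 rose and 11 fell in spleen (81.0%, beside 57.1% of all genes, 28.2% higher and 28.9% lower) with a median of -0.39. The spleen median was -0.275 over 20 genes without *Id1*, which had 3 reads in WT and 0 in KO. All 11 genes of the list called in both organs were called in opposite directions, beside 77.9% of the genes at large that were called in both. *Tbx21*, the transcription factor T-bet that TGF-β is known to lower, went from 219 ± 3.83 to 479 ± 1.55 CPM in lung and from 336 ± 7.31 to 149 ± 1.68 CPM in spleen, and *Bhlhe40* from 323 ± 10.2 to 472 ± 11.8 and from 255 ± 10.5 to 172 ± 10.5 CPM. *Klf10*, an early target of TGF-β, rose in lung from 131 ± 2.28 to 216 ± 6.86 CPM and fell in spleen by 0.39 on the log2 scale. *Cd9* and *Lgals1* moved the other way, *Cd9* from 904 ± 17.1 to 649 ± 26.5 CPM in lung and from 638 ± 13.7 to 767 ± 15.9 CPM in spleen, and *Lgals1* from 1864 to 1447 and from 1178 to 1428 CPM. Markers of innate lymphoid cells of group 1, of which *Itga1* is also on this list, summed to 126–130 CPM in WT and 79.2 in KO for lung, and to 177–193 CPM in WT and 154–167 in KO for spleen, and their part in these counts was not tested.

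**Figure D4:**
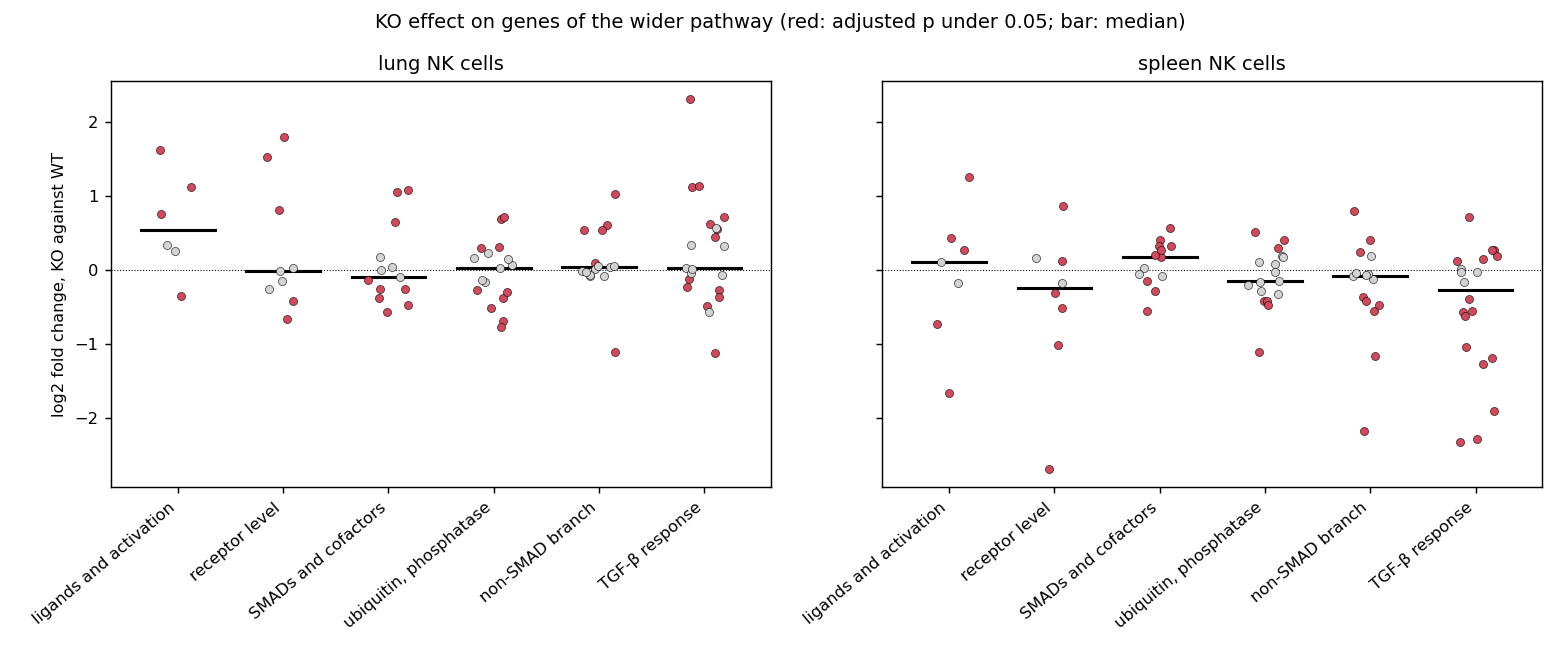
Log2 fold change of KO against WT (y axis) for the tested genes of 6 pathway lists in lung (81 genes) and spleen (80 genes), 1 point per gene, red where the adjusted p was under 0.05, with a bar at the median of the points. Genes with 3 or fewer reads in 1 of the groups are left out. In spleen, more genes of the response list lie below 0 than above it, a list not split by the direction in which TGF-β moves each gene.

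The genes whose log2 CPM followed a member most closely over the 8 libraries, each centred on its mean, were found among 6961 genes by the root mean square difference. For *Skil* they were *Wdr43* (0.0291) and *Lats1* (0.0424), where *Skil* itself varied by 0.278. For *Tgfbr2* they were *Dnaja2* (0.0332) and *Slc38a2* (0.0401), for *Smad3* *Hbs1l* (0.0356) and *Ppat* (0.0501), and for *Tgfb1* *Adamts14* (0.0449) and *Sepn1* (0.0536). *Ski* was nearest to *Tor4a* (0.0475), *Smad2* to *Ergic3* (0.0509), *Tgfbr1* to *Ccdc28a* (0.0624), *Smad4* to *Zfp91* (0.0701) and *Smad7* to *Gdap2* (0.0932). None of these genes followed *Tgfbr3* closely, the nearest being *Serpine2* at 0.93, where *Tgfbr3* itself varied by 1.62. The genes compared had a mean log2 CPM of at least 4, so genes at the low level of *Tgfbr3* were not among them. Among the members themselves, *Tgfb1* and *Smad3* were the closest pair, at 0.143.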

How the data were processed

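RNA of sorted NK cells was made into 8 libraries with the NEBNext Ultra RNA kit and read to 50 bp. According to the authors' processing notes, reads were aligned to mm10 (GRCm38) with HISAT2 2.1.0 and counted with HTSeq 0.11.1, and the deposited values are counts of reads for each gene symbol, not normalized. The annotation and strand setting are not given in the sources used here. Of uniquely aligned reads, 44.3–46.6% were counted on genes, and the HTSeq summary rows were left out. Depth ranged from 3132963 to 26482366 reads.

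Counts were analysed with R 4.3.3 and edgeR 4.0.16 (filterByExpr, TMM, 1 mean per group over all 8 libraries, two-sided quasi-likelihood test, Benjamini-Hochberg over 12595 genes, call at 0.05). Standard errors came from the F statistic, and CPM used TMM-scaled totals. The 10 genes and the gene lists were chosen with earlier results of these data known. From each list, the text names genes out of at most 3 per direction with the smallest p and no overlap between libraries. Each member's 2 most similar genes had a mean log2 CPM of at least 4. Gene positions, lengths and GC content were taken from GENCODE M21, promoters from RefSeq (GRCm38.p6).

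Alternatives were RLE, upper quartile and library totals, other filters, DESeq2 1.42.0, a fit of 4 libraries, an assumed biological coefficient of variation of 0.2, a GC offset (spline with 5 degrees of freedom), the replicate number as a block, and leaving out each library. The steps were tested on simulated data.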

Additional observations from a re-analysis of the deposited data

Results flagged for a closer look

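Lung and spleen differed in their response to loss of *Ccl5-PE* for 6 of the 10 genes by the interaction test of edgeR, beside 61.6% of all genes tested. On the log2 scale, the KO effect in lung minus that in spleen was -0.76 for *Smad4*, 1.10 for *Smad7*, 0.61 for *Ski*, -0.32 for *Skil*, -0.35 for *Tgfbr1* and 3.63 for *Tgfbr3*. For *Smad4* and *Smad7* the 2 organs moved in opposite directions and each passed its own test. For *Ski* the change was called in spleen, and for *Skil* and *Tgfbr1* in lung. For *Tgfbr3* both organs fell, and the fitted difference rests on spleen KO libraries with 0 and 1 read, so its size depends on the prior count of the fit and is no bound. With the GC offset, the difference was 0.033 for *Tgfbr1*, 0.063 for *Skil* and 0.21 for *Ski*, none of which were called, and it was 0.64 for *Smad7*, which was called.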

How the results depend on the processing

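With 8 members called in lung, 6 in spleen, 6 for the difference between organs, 4 between WT organs and 7 between KO organs, the assumed biological coefficient of variation of 0.2 left 1, 1, 1, 1 and 2 of them (the common estimate from these libraries was 2.5%). Of the 12595 genes tested, that assumption called 1557 in lung and 1144 in spleen. DESeq2 called 3 members in lung and 3 in spleen, beside 4507 and 4165 of all genes. The GC offset gave 3 in lung, 8 in spleen and 3 for the difference, and with the replicate block 3, 8 and 4. Among all genes, the GC offset called 6758 in lung and 7003 in spleen, and with the block 6753 and 7053. The main fit called 7000 and 7195. Leaving out 1 library leaves 1 library in its group. Without any 1 of the lung libraries, fewer members and a smaller share of all genes were called in lung. Over these fits, the lung log2 fold change ranged from 0.29 to 0.50 for *Tgfb1* and from -0.47 to -0.16 for *Tgfbr1*. It ranged from -0.28 to -0.14 for *Smad2*, -0.45 to -0.18 for *Smad4* and 0.29 to 0.59 for *Smad7*. In spleen, the range was 0.20 to 0.34 for *Tgfbr2*, -0.22 to -0.0057 for *Smad2* and -0.79 to -0.46 for *Smad7*. *Tgfbr3* in both organs was called under every alternative that tested it, and was not tested with the filter of 10 counts in every library nor, in spleen, in the fit of the 4 spleen libraries. *Tgfbr2* in lung and *Smad4* and *Ski* in spleen lost their call under the assumed variation of 0.2 and under no other alternative.

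Of 41 values of single genes, the GC offset reversed 8, namely *Smad3* (-0.061) and *Ski* (-0.11) in lung, *Smad3* (0.042) and *Skil* (-0.13) in spleen, and the organ difference of *Tgfbr1* (0.033), *Smad2* (0.21), *Smad3* (-0.10) and *Skil* (0.063). With the replicate block added these were -0.078, -0.087, 0.030, -0.14, 0.036, 0.21, -0.11 and 0.062. Library totals reversed *Tgfb1* (-0.0046) and *Skil* (-0.010) in spleen and the organ difference of *Smad2* (0.14), and the filter of 10 counts that of *Smad2* (0.0036). Spleen *Tgfbr1*, at -0.0064, became 5.8e-05 with RLE, 0.0047 with the upper quartile, 0.0099 without a filter, 0.010 with DESeq2 and 0.0058 with the assumed variation. Leaving out 1 library in turn moved it between -0.027 and 0.028, spleen *Smad3* between -0.23 and 0.014 and the organ difference of *Smad2* between -0.19 and 0.040. None of the reversed values were called except *Skil* in spleen and, with the block, the difference of *Smad2*. The cause of these reversals was not tested.

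Library totals moved the median of all genes by 0.16 for the organ difference and -0.107 between WT organs, and the share of called genes that were higher from 52.5% to 63.3% in lung, from 52.9% to 63.5% for the difference and from 48.6% to 36.9% between WT organs. Equally numbered libraries deviated with correlations of -0.0758 to 0.169 over 6 pairs of groups. With only 2 libraries per group, this check cannot decide whether equal numbers mark paired libraries. The replicate block called 8, 6, 6, 4 and 7 members and kept all 41 values of single genes on their side. Among all genes it called 6977 in lung and 7185 in spleen. Low counts limit *Tgfbr3*, and *Tgfb1* and *Smad7* rest on 110 to 284 reads per group.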
